A study of Mus musculus with 6 samples.

Results

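The core circRNAs were the entries of the deposited circRNA table that had at least 1 back-spliced read in at least 5 of the 6 aortas. They numbered 420 of 10023 entries. A circRNA is made when the end of an exon is joined back to the start of the same or an earlier exon, and only reads across this back-splice were counted. Because the members were chosen by their reads, their levels are a description, and only the difference between the diets was tested.

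The aortas came from 6 male mice of the C57BL/6 background that lack apolipoprotein E (ApoE-/-), which clears cholesterol-rich particles from blood. The mice were 6 weeks old when the diets began, and 3 were given a normal diet (ND) and 3 a high-fat diet (HFD) for 12 weeks. All 6 carried the same deletion, so neither diet group is a model of a normal artery. Each library was total RNA from aorta tissue treated with RNase R, an enzyme that degrades linear RNA, and the replicate numbers name different mice.

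Circles form when splice sites at both ends of an exon or a run of exons are brought together, often by pairing of long flanking introns, and a closed ring has no end for exonucleases to attack. They are therefore long-lived and can collect in tissues whose cells divide little, such as the muscle layer of the aorta. The table holds circRNAs alone and no linear RNA. In a bulk tissue, fewer cells of a type and less RNA per cell cannot be told apart.

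The junctions of 5 abundant core circles are shown as DNA bases, 5′ to 3′ on the strand of the host gene. They were read from GENCODE vM21 transcripts on GRCm38, 25 bases on each side. Lower case marks the end of the last exon, and capitals mark the start of the first exon to which it is joined. The pair from Rasa2 is shown because both circles use the same first exon, so that their capitals are identical and only the last exon differs.
Nfix mmu_circ_0001704, chr8:84771784-84772315, minus strand: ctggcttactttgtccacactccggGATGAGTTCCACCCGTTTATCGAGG
Arhgap32 circRNA2169, chr9:32246447-32250787, plus strand: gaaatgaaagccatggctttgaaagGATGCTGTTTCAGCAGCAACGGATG
Msrb3 circRNA2589, chr10:120825109-120852092, minus strand: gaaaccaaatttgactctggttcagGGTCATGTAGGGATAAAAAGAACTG
Rasa2 mmu_circ_0001829, chr9:96591950-96611499, minus strand: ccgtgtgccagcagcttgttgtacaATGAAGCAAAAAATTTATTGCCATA
Rasa2 mmu_circ_0001830, chr9:96602713-96611499, minus strand: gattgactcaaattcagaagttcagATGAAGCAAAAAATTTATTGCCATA

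The circle of Msrb3 is short enough to print whole. Its 26984-base span in the genome leaves 216 nt once the introns are removed, exons 3 to 5 of 7, all coding.
Msrb3 circRNA2589, whole circle from the first base of exon 3: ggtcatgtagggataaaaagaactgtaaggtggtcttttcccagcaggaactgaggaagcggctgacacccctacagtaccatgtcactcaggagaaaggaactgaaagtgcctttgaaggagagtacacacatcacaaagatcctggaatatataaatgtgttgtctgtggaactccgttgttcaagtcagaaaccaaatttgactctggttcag

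The 6 libraries held 37393 back-spliced reads, 4694 to 5621 per HFD aorta and 7142 to 7585 per ND aorta. The core circRNAs were 4.19% of the entries and held 13970 of these reads, 37.4%. At the other end, 7459 entries had reads in 1 aorta alone. The core share of reads was 37.8% ± 1.26 in the HFD aortas and 37.0% ± 0.49 in the ND aortas (SD, n = 3 each). This difference lay within the spread between aortas (two-sided exact permutation test, p = 0.4, where 3 aortas against 3 allow no p under 0.1). Reads were found in all 6 aortas for 197 core circRNAs and in 5 for 223.

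**Figure D1:**
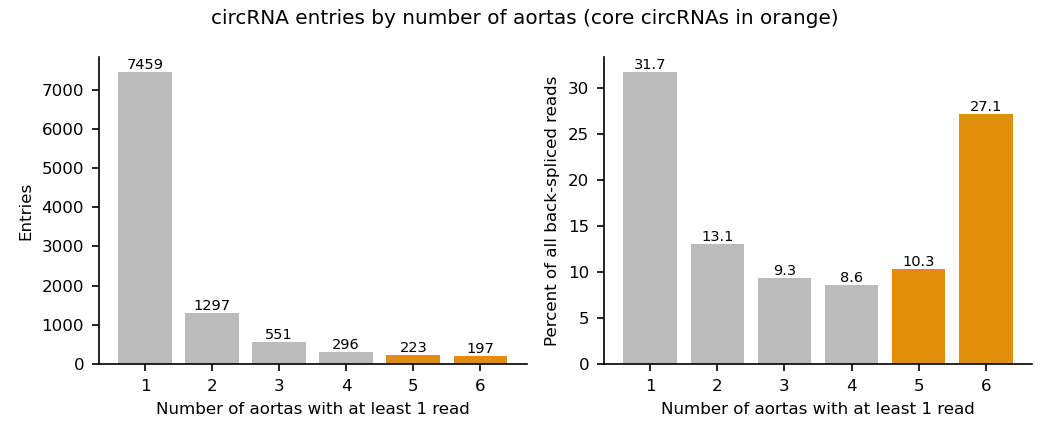
Number of entries (left) and percent of all back-spliced reads (right) by the number of aortas in which an entry had at least 1 read, with the core circRNAs in orange. The 197 entries seen in all 6 aortas held 27.1% of the reads, and the 7459 seen in a single aorta held 31.7%.

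Summed over the 6 aortas, the median core circRNA had 20 reads (interquartile range 13 to 33, range 5 to 707), against a median of 2 for all entries. A mean of at least 10 reads per aorta, called well measured here, was reached by 47 core circRNAs, which held 43.7% of the core reads. The rule sorts entries by spread over aortas, not by abundance alone. Just inside it, with 5 aortas and the fewest reads, were circRNA685 of Heg1 with 5 reads in all, and circRNA173 of Adamts6 and mmu_circ_0000639 of Lrrk2 with 6 each. Just outside it, with 4 aortas and the most reads, were circRNA2495, listed as intergenic, with 66 reads, mmu_circ_0000057 of Gigyf2 with 59 and circRNA2602 of Ptms with 56. circRNA2495 and the Gigyf2 circle also had reads in an entry 1 base away, as described below. Of the 223 core circRNAs missing from 1 aorta, 140 were missing from an HFD aorta and 83 from an ND aorta. For 39 of the 223, the aorta at 0 had reads in an entry 1 base away. The HFD libraries were the shallower ones, and the part of depth in this count was not tested.

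The most abundant core circRNA was a single-exon circle of Nfix, a transcription factor of the nuclear factor I family. mmu_circ_0001704 had HFD reads of 97, 98 and 87 and ND reads of 134, 127 and 164. It was high in every library and held 5.06% of the core reads. Each circle is counted at 1 junction, so these read numbers carry no term for length. After normalization for library depth, which gives the normalized reads used below, its levels were 106 ± 7.15 on the HFD and 128 ± 13.4 on the ND (SD, n = 3 each).

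Tulp4, whose product is a Tubby-like protein, gave the next circle, circRNA2611, with HFD reads of 93, 103 and 64 and ND reads of 66, 37 and 48. The third was circRNA2169 of Arhgap32, a GTPase-activating protein, which had HFD reads of 21, 48 and 23 and ND reads of 97, 65 and 82. mmu_circ_0001447 of Cped1 had almost as many reads over all aortas as the Arhgap32 circle, 335 against 336, with 40, 48 and 46 on the HFD and 60, 59 and 82 on the ND. These circles differed in how evenly they were spread: the normalized levels of Cped1 overlapped between the diets and those of Tulp4 and Arhgap32 did not.

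circRNA2589 of Msrb3, a methionine sulfoxide reductase, had HFD reads of 26, 22 and 9 and ND reads of 70, 46 and 46. circRNA2714 of Esyt2, which encodes an extended synaptotagmin that tethers endoplasmic reticulum to the plasma membrane, had HFD reads of 25, 36 and 25 and ND reads of 42, 34 and 38. mmu_circ_0001052 is the single-exon circle of Hipk3, a kinase gene known for its abundant circle, and had HFD reads of 18, 22 and 31 and ND reads of 31, 34 and 25. The Esyt2 and Hipk3 circles had normalized levels that overlapped between the diets.

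The rest of the 15 circles with the most reads had 126 to 152 reads each. They were both circles of Rasa2 (a Ras GTPase-activating protein), the single-exon circle of Slc8a1 (the sodium-calcium exchanger), circles of Lrch3, Mkln1 (muskelin), Mettl9 (a methyltransferase) and Tcf20 (a transcriptional coregulator), and circRNA2523 on chromosome Y. The other 32 well-measured circles had 62 to 111 reads each. The 15 together held 24.96% of the core reads. The first of them had 1.72 times the reads of the second.

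**Figure D2:**
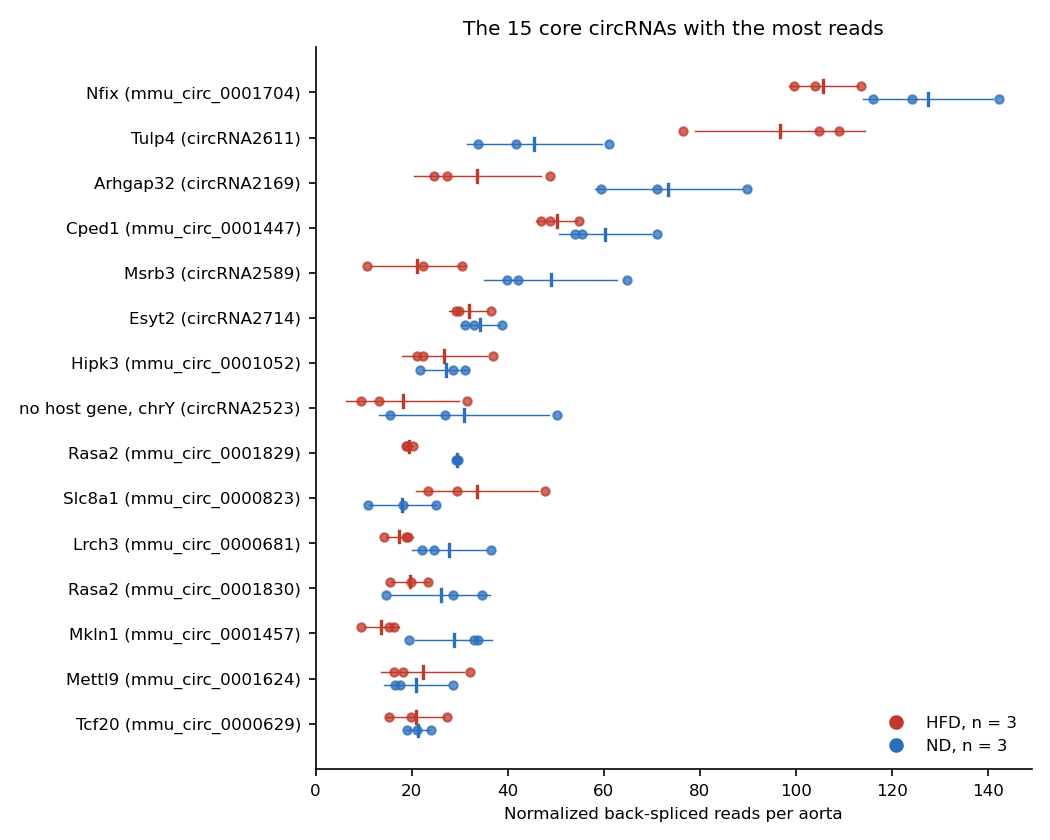
Normalized back-spliced reads in each of the 3 HFD (red) and 3 ND (blue) aortas for the 15 core circRNAs with the most reads. Points are aortas, thick marks are means and thin lines are 1 SD; Nfix stands highest in every ND aorta, and the groups of Nfix, Tulp4, Arhgap32, Msrb3, mmu_circ_0001829 of Rasa2, Lrch3 and Mkln1 do not overlap on this scale.

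The core circRNAs came from 341 host genes, of 3981 with any entry. Most hosts, 284, gave 1 core circle, 43 gave 2, and 14 gave 3 or more. A core host had a median of 4 entries in the table, and its core entries held a median of 78.6% of its reads. Zfp644, a zinc finger gene, had 4 core circles. Arhgap32, Pde5a, Nox4, Asph, Kat6b, Bbs9, Pdlim5, Kansl1l, Abca1, Ubn2, Picalm and Atxn1 had 3 each. A start or an end was shared with another core circle by 86 of the 420.

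Hosts with several core circles differed in how evenly these were used. In Arhgap32, circRNA2169 covers exons 14 to 18 and held 336 of the 391 core reads of the gene. Its other 2 circles, mmu_circ_0001765 and mmu_circ_0001764, share a start at exon 6, with HFD reads of 1, 5 and 4 and of 2, 2 and 1, and ND reads of 3, 10 and 9 and of 8, 7 and 3. In Pde5a, the cGMP phosphodiesterase of smooth muscle, 2 of the 3 core circles had equal totals. Its single-exon circle mmu_circ_0001165 had HFD reads of 13, 10 and 7 and ND reads of 25, 19 and 15. Its 6-exon circle mmu_circ_0001166 had HFD reads of 9, 18 and 12 and ND reads of 23, 20 and 7, and both totalled 89. The last, mmu_circ_0001167, had 21. Zfp644 had 1 circle of 5 exons, circRNA2572, with HFD reads of 10, 6 and 5 and ND reads of 13, 5 and 6, and 3 others of 3600 to 3735 nt.

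In 4 genes a pair of circles was well measured, so the balance between them could be followed in each aorta. Of the reads of the Mettl9 pair, which shares an end, 67.6% ± 6.98 on the HFD and 66.8% ± 15.5 on the ND came from the longer circle (SD, n = 3 each). For the Tcf20 pair, which shares a start, the single-exon circle took 66.5% ± 6.99 and 67.7% ± 7.05. For the Rasa2 pair, mmu_circ_0001829 took 50.1% ± 4.54 and 54.4% ± 10.9. For the Pde5a pair the single-exon circle took 43.9% ± 13.2 and 56.3% ± 10.4. The ranges of the diets overlapped in all 4 pairs.

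Core circRNAs were made of few exons. Of the 420, 409 are listed as exonic, 6 as intergenic and 5 as intronic lariat-type circles (ciRNAs). The exonic ones had a median of 3 exons, against 4 for the 8583 exonic entries that are not core. A single exon made up 14.2% of them against 5.23%, and 8 or more exons made up 7.82% against 16.2%. The median genomic span was 7303 bases against 9240. Once introns were removed, the circles were alike in size, with medians of 546 nt and 550 nt, so a core circle packed about the same sequence into fewer exons. These comparisons describe lists that the read rule itself separated, and no test was made of them.

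The circles differed more in where they start. Of the 409, 391 have both ends at exon ends of 1 annotated transcript, and 193 of these (49.4%) begin at exon 2, against 27.9% of the other exonic entries. Among the well-measured core circles this share was 65.1%, among those seen in 5 aortas 44.9%, and among entries seen in 1 aorta 25.9%. Exon 2 often holds the start codon, and 25.1% of core circles contain it, against 13.1% of the others. The single-exon circles of Hipk3, Slc8a1 and Tcf20 each contain the start codon of their gene, and that of Nfix, also exon 2, does not. The stop codon is in 2.56% of core circles and 2.59% of the others.

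Introns on both sides of a core circle were long. The intron before the first exon had a median of 15668 bases against 7231 for the other exonic entries, and the one after the last exon 14999 against 5799. First introns of genes tend to be long, and so circles that start at exon 2 were set apart. Among these, the upstream medians were 21828 and 17475 bases and the downstream medians 15188 and 7273. Among circles that start at exon 3 or later, they were 10375 and 5044 bases upstream and 14772 and 5116 bases downstream. The longest intron of the transcript lay next to 58.8% of core circles and 35.1% of the others. The circle of Slc8a1 lies between introns of 88670 and 202215 bases, and that of Arhgap32 between introns of 384 and 3279 bases. Other well-measured circles also had short neighbours, among them Nfix with 1038 bases upstream and mmu_circ_0001166 of Pde5a with 2494 and 4988 bases.

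**Figure D3:**
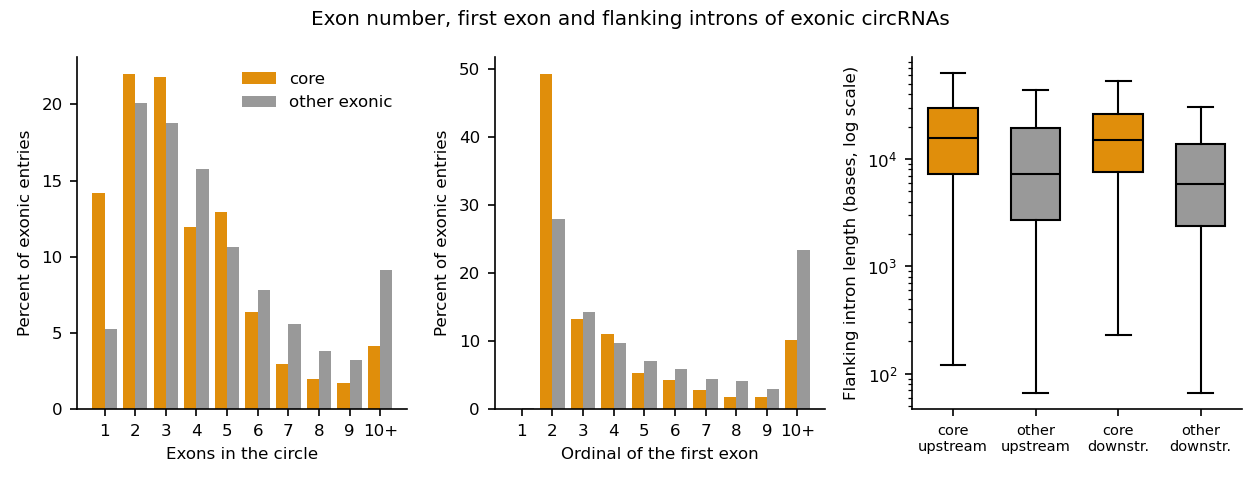
Percent of exonic entries by exon number (left) and by the ordinal of the first exon in its transcript (centre), and flanking intron length in bases on a log axis (right; box, quartiles; whiskers, 1.5 times the interquartile range, outliers not drawn), for core (orange) and other (grey) exonic entries. Exon 2 is the first exon of 49.4% of core circles and 27.9% of the others.

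Within the core, these features went with abundance weakly at most. Over 391 circles, Spearman's correlation with total reads was 0.12 for the upstream intron, 0.13 for the downstream intron and 0.01 for circle length, and over 420 it was 0.00 for exon number. The points share libraries and some share a host gene, so these values are given as a description.

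The extremes of the core were low in reads. mmu_circ_0002037 of Utrn, the dystrophin relative utrophin, had the most exons, 24, which give 3786 nt, and had HFD reads of 1, 4 and 1 and ND reads of 12, 0 and 1. mmu_circ_0010827 of Lrba followed with 18 exons and circRNA1138 of Picalm, a clathrin assembly protein, with 17. The longest spans, 258755 and 161067 bases, belonged to circRNA109 and circRNA112 of Atxn1, both of which start at exon 2, and the next, 106916 bases, to circRNA1122 of the neurotrophin receptor gene Ntrk3. The shortest spans were single exons of Sptbn1 (194 bases), Zfp827 (234 bases) and Med13l (238 bases). The Med13l circle, mmu_circ_0001396, was the exception in reads, with 20, 6 and 9 on the HFD and 18, 31 and 19 on the ND.

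Names of the form mmu_circ mark circles present in a catalogue. They were carried by 69.8% of the core against 27.1% of all entries. The share was 18.9% for entries in 1 aorta, 47.5% for those in 2 to 4, 67.7% for those in 5 and 72.1% for those in 6. Some abundant core circles had no such name, among them those of Tulp4, Arhgap32, Msrb3 and Esyt2.

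The 11 core entries not listed as exonic included 2 on chromosome Y that share a start, circRNA2523 and circRNA2524, which run over the genes Gm47283 and Mid1-ps1. circRNA2523 had HFD reads of 27, 13 and 8 and ND reads of 29, 17 and 58. circRNA2524 had HFD reads of 5, 12 and 0 and ND reads of 8, 6 and 35. ND replicate 3 was the highest for both. Sequence on this stretch may be repeated elsewhere on the sex chromosomes, so their assignment is uncertain. The entries mmu_circ_0012992 and circRNA2510, listed as intergenic, lie on the strand of Cacna1c, the L-type calcium channel gene of smooth muscle, and share an end at 119002577 on chromosome 6. circRNA2488 runs over the neighbouring myosin genes Myh1, Myh2 and Myh4, whose similar sequences make a junction hard to place, and circRNA2499 runs over Rbm4. The ciRNAs included those of Zranb1, Etv6, Rpl9 and Itgb4.

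For 39 core entries the table holds a further entry with the same end and a start 1 base away, and the reads of these pairs never mixed. In 195 of the 234 combinations of pair and aorta all reads were in the core entry, in 39 all were in the other entry, and in 0 both had reads. Each of the 39 core entries was at 0 in exactly the aorta in which its partner had reads. Over the whole table, both members of a pair had reads in 9 of 1672 combinations. The circle of Arhgap12, circRNA2466, had HFD reads of 12, 25 and 11 and ND reads of 22, 25 and 0, and its partner had 15 reads in that last aorta and none in any other. A 0 in such an entry thus stood beside reads at a junction 1 base away, and the cause was not tested. With pairs summed, the same rule gave 513 core circles, with 42.7% of the reads. The Gigyf2 circle and circRNA2495, just outside the rule, joined them with 95 and 76 reads.

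The spread between aortas differed among core circRNAs. The coefficient of variation within a diet had a median of 29.8% on the HFD and 28.2% on the ND for the 47 well-measured circles, and of 61.6% and 53.4% for the others. Nfix had 6.77% and 10.5%. The variance of reads over their mean, which is 1 where spread comes from counting alone, had a median of 1.54 for the well-measured circles and was above 2 for 15 of them. It was 1.02 for Nfix but 3.73 for Tulp4, 4.11 for Arhgap32, 4.09 for Msrb3 and 10.02 for circRNA2524. Between aortas of the same diet, Spearman's correlation over the 420 circles was 0.41 to 0.56, and between diets 0.39 to 0.49.

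The question put to the diets was which circRNAs differ between the atherosclerosis-prone aortas of HFD-fed and ND-fed mice. The criteria were an edgeR quasi-likelihood p under 0.05 before adjustment, with a log2 fold change over 1 in either direction. They were met by 13 of the 420 core circRNAs, or 3.1%, against 4.06% of all 2564 entries tested. How the core share stood to that background depended on the setting. It was below it in 10 of 15 alternatives, among them library size alone (2.14% against 3.2%), the authors' depth (3.1% against 4.1%), at least 10 reads (2.43% against 8.22%) and reads in at least 3 aortas (3.57% against 6.79%). It was above it without HFD replicate 1 (4.29% against 3.3%) and with DESeq2 (1.43% against 0.897%), limma (5.71% against 3.63%), no filter on low counts (3.57% against 0.928%) and the replicate block (2.62% against 1.25%). Of the 13, 4 were higher on the HFD (0.952%, against 1.29% of all entries tested) and 9 were lower (2.14%, against 2.77%). This split by direction turned with the scaling, to 6 higher and 0 lower with DESeq2 and 6 higher and 3 lower with library size alone, and without ND replicate 1 it was 6 higher and 2 lower. By p alone, 16 core circRNAs were under 0.05 (3.81%, against 4.17%). After Benjamini-Hochberg adjustment over all entries tested, 3 core circRNAs had an edgeR adjusted p under 0.05 (0.714%, against 0.156%), and the next smallest was 0.58. Normalized reads of the diets did not overlap for 67 core circRNAs (16.0%, against 6.63%). Entries with reads in only 2 aortas, 1297 of the 2564 tested, cannot pass this, so the background share is low by construction. The spread behind these p-values is shared by entries of like abundance and takes nothing from the entry's own aortas, since the fit gave infinite prior weight to the shared value. For a circle noisier than others of its abundance, the p-value does not reflect its own spread. The variance over mean was 3.73 for Tulp4, 4.11 for Arhgap32 and 4.09 for Msrb3, the 3 with an adjusted p under 0.05. The median of the well-measured circles was 1.54.

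The median log2 fold change (HFD over ND) of the core was -0.19, the same as that of all entries tested. Its interquartile range was narrower, -0.74 to 0.41 against -1.31 to 0.69. Among the 47 well-measured circles the median was -0.27 and the range -1.22 to 1.09, with 41 within 1 of 0 in either direction. Of these 47, 39 were lower and 8 higher on the HFD under TMM normalization, but 26 were lower and 21 higher with library size alone, which moves the median of all entries tested from -0.19 to 0.06. With DESeq2 size factors 30 were lower and 17 higher. The criteria were met by 5 of the 47 (10.6%, against 4.06% of all entries tested), 1 higher (2.13%) and 4 lower (8.51%) on the HFD. That share was above the share of all entries in 15 of 15 alternatives, but by little in some. It was 8.51% against 8.22% with at least 10 reads, and 6.38% against 5.73% without ND replicate 2. With DESeq2 and with library size alone, 2 of the 47 (4.26%) were called higher and 0 lower, against 0.897% and 3.2% of all entries called in those fits. A p under 0.05 before adjustment was reached by 8 (17.0%, against 4.17% of all entries tested), and one after adjustment by 3 (6.38%, against 0.156%).

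Of all entries tested, 6.63% had normalized reads that did not overlap, a share lowered by the 1297 seen in only 2 aortas, which cannot pass. For 11 of the 47 well-measured circles (23.4%) they did not overlap between the diets. These were Nfix, Tulp4, Arhgap32, Msrb3, mmu_circ_0001829 of Rasa2, Lrch3, Mkln1, Tent4a, Nox4, Asb3 and Pwwp2a, and of them Tulp4 was the one higher on the HFD. The list depends on the scaling. As a percent of all back-spliced reads, 8 of the 47 did not overlap (against 6.28% of all entries tested, with the same limit), 3 higher and 5 lower on the HFD. These 8 kept Tulp4, Arhgap32, Msrb3, mmu_circ_0001829 of Rasa2, Nox4 and Asb3 and gained Slc8a1 and Crebrf. mmu_circ_0000477 of Tent4a, a non-canonical poly(A) polymerase, had HFD reads of 10, 12 and 9 and ND reads of 24, 14 and 32, a log2 fold change of -0.85 that did not pass. mmu_circ_0002977 of Asb3 had HFD reads of 7, 10 and 7 and ND reads of 23, 22 and 14, at -0.99, and mmu_circ_0000254 of Pwwp2a had HFD reads of 9, 9 and 9 and ND reads of 13, 15 and 14, at -0.31. Tent4a and Pwwp2a overlapped as a percent of reads.

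**Figure D4:**
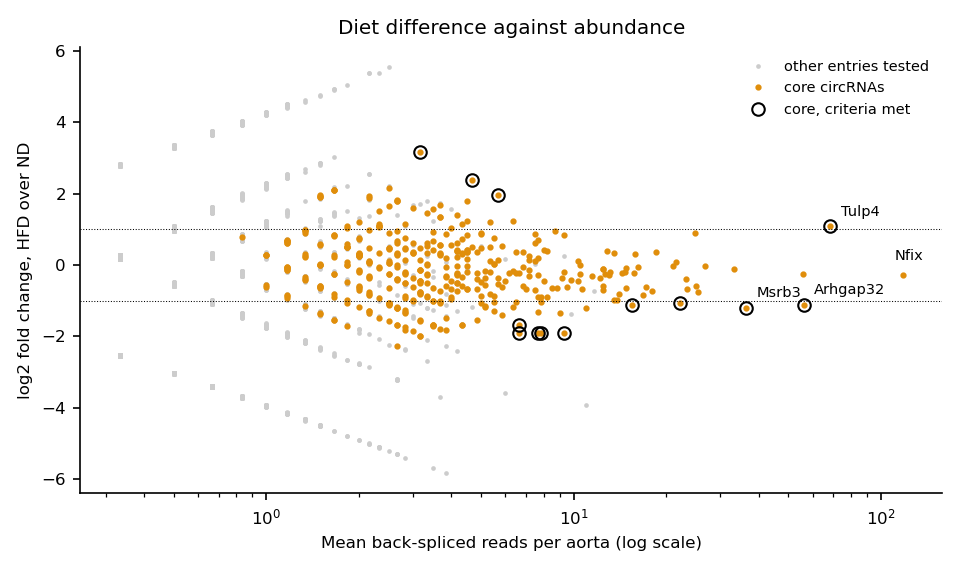
log2 fold change (HFD over ND) against mean back-spliced reads per aorta (log axis) for the 2564 entries tested, with core circRNAs in orange and those that met the criteria circled; dotted lines mark a log2 fold change of 1 in either direction. The spread narrows as reads rise, and of the 47 circles with a mean of at least 10 reads all but 6 lie between the lines.

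circRNA2611 of Tulp4 was the core circle that rose with an adjusted p under 0.05. Its normalized levels were 96.7 ± 17.7 on the HFD and 45.5 ± 14.0 on the ND (SD, n = 3 each), and all 3 HFD aortas lay above all 3 ND aortas. The log2 fold change was 1.09 (SE 0.17, edgeR adjusted p = 1.4e-06). This SE and p rest on the shared spread, not on that of its own aortas. The edgeR adjusted p was 0.25 with reads in at least 3 aortas and 0.073 with at least 10 reads. A second core circle of the gene, circRNA2612, had HFD reads of 9, 3 and 5 and ND reads of 4, 0 and 4, with a log2 fold change of 1.39 that did not pass (edgeR adjusted p = 0.58). The ends of circRNA2611 lie in different annotated transcripts, and no junction is shown for it. Without HFD replicate 2 the log2 fold change was 0.92, and without ND replicate 2 it was 0.95, both with an edgeR adjusted p of 0.55.

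The circles of Arhgap32 and Msrb3 fell with an adjusted p under 0.05. circRNA2169 of Arhgap32 had normalized levels of 33.6 ± 13.2 (HFD) and 73.5 ± 15.3 (ND), a log2 fold change of -1.12 (SE 0.21, edgeR adjusted p = 0.00018). circRNA2589 of Msrb3 had levels of 21.2 ± 9.90 and 48.9 ± 13.8, a log2 fold change of -1.20 (SE 0.29, edgeR adjusted p = 0.017). In both, every HFD aorta lay below every ND aorta. Both lost the call with library size alone (log2 fold changes of -0.86 and -0.92), with DESeq2 (-0.92 and -0.98, both adjusted p = 0.99) and without HFD replicate 3 (-0.92 and -0.80) or ND replicate 1 (-0.99 and -0.999). Arhgap32 also lost it without HFD replicate 1 (-0.89) and Msrb3 without ND replicate 2 (-1.25). Over the 15 alternatives run, the criteria were met in 13 for Tulp4, in 10 for Arhgap32 and in 10 for Msrb3, and the adjusted p was under 0.05 in 9, 4 and 2. The adjusted p ranged from 4.5e-11 to 0.55 for Tulp4, from 0.0018 to 0.99 for Arhgap32 and from 0.019 to 0.99 for Msrb3.

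Besides these, 2 well-measured circles fell past the criteria without passing adjustment (edgeR adjusted p = 0.58 for each). mmu_circ_0001457 of Mkln1, the intracellular adaptor muskelin, had HFD reads of 13, 16 and 8 and ND reads of 21, 37 and 38, a log2 fold change of -1.06 ± 0.40 (SE). circRNA2736 of Nox4, the NADPH oxidase of vascular cells, had HFD reads of 9, 9 and 7 and ND reads of 20, 20 and 28, and normalized levels of 9.35 ± 1.1 and 20.4 ± 3.41 (SD, n = 3 each). This gave a log2 fold change of -1.11 ± 0.50 (SE), and the groups did not overlap. The criteria were met in 8 of the 15 alternatives for Mkln1 and in 11 for Nox4. Both lost the call with DESeq2 (-0.87 and -0.92), with library size alone (-0.81 and -0.86) and without HFD replicate 3 (-0.79 and -0.96) or ND replicate 3 (-0.96 and -0.98). Mkln1 also lost it without ND replicate 2 (-0.91), with at least 10 reads (-0.96) and with entries 1 base apart summed (-0.99). The other core circles of Nox4, circRNA1135 and circRNA1134, had log2 fold changes of -0.53 and -1.07 and did not pass (edgeR adjusted p = 0.95 for each).

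A further 3 abundant circles had an edgeR p under 0.05 before adjustment but a smaller fold change, and each had an adjusted p of 0.58. Nfix had a log2 fold change of -0.27 (SE 0.12) with no overlap of normalized reads, but -0.07 with DESeq2 and -0.01 with library size alone. As a percent of all back-spliced reads it overlapped, at 1.74 to 2.07 on the HFD and 1.77 to 2.19 on the ND. Slc8a1 had HFD reads of 20, 29 and 40 and ND reads of 27, 12 and 21, a log2 fold change of 0.89 (SE 0.35) with overlapping normalized reads. It met the criteria with DESeq2 (1.09), library size alone (1.15) and without HFD replicate 1 (1.14) or ND replicate 1 (1.11). circRNA2523 on chromosome Y had -0.77 (SE 0.36), with groups that overlapped widely. This value was -0.25 without ND replicate 3, and without HFD replicate 1 it was -1.38 and met the criteria. For the circle of Hipk3 the difference was -0.02 (SE 0.33), and for that of Esyt2 -0.10 (SE 0.29), which leaves room for changes in either direction. The first circle of Rasa2 had closely spaced values, at 19.4 ± 0.84 (HFD) and 29.5 ± 0.19 (ND) normalized reads. Its variance over mean, 0.017, was below the 1 of counting alone, so this closeness was not read as a trait of the circle. Its log2 fold change of -0.60 (SE 0.36) did not pass (edgeR adjusted p = 0.58).

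The smallest p-values among well-measured circles that were higher on the HFD, after Tulp4 and Slc8a1, belonged to Rnf169 (log2 fold change 0.37), Crebrf (0.40), Asph (0.34) and Arhgap12 (0.29), each with an edgeR adjusted p of 0.95. None of these 4 passed. The value of Arhgap12 turned to -0.016 once its partner entry was added.

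The other 8 core circles that met the criteria had a mean under 10 reads per aorta and an edgeR adjusted p of 0.58. Over the same 15 alternatives, that of Glis3 met the criteria in 15 and the others in 5 to 12. Those higher on the HFD were of Glis3, Abca1 and Zfp532. mmu_circ_0000943 of Glis3, a zinc finger transcription factor, had HFD reads of 5, 7 and 5 and ND reads of 0, 1 and 1, a ratio of 10.6 after normalization (95% exact binomial interval of the counts 2.51 to 94.3, counting error only). mmu_circ_0011676 of Abca1, the transporter that moves cholesterol out of cells, had HFD reads of 6, 13 and 4 and ND reads of 4, 0 and 1, a log2 fold change of 2.38 (SE 1.00). It met the criteria in 12 of the 15 alternatives, with 3.87 without ND replicate 1. The call was lost without HFD replicate 2 (1.79), ND replicate 2 (1.88) or ND replicate 3 (2.12). circRNA1044 of Zfp532 had HFD reads of 11, 10 and 5 and ND reads of 2, 1 and 5, a log2 fold change of 1.97 (SE 0.88). Their normalized levels did not overlap between the diets.

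Those lower on the HFD were of Erbin, Itga8, Acaca and Thsd4, with circRNA2488 over the myosin genes. Their log2 fold changes were -1.91, -1.92, -1.90, -1.68 and -1.91 in that order. With 1 aorta left out, Erbin ranged from -3.51 to -0.92 and Itga8 from -3.25 to -1.32. Acaca ranged from -2.50 to -1.32 and Thsd4 from -3.00 to -1.27. mmu_circ_0000495 of Erbin, a scaffold protein, had HFD reads of 2, 8 and 0 and ND reads of 10, 30 and 6, but the entry 1 base away held 15 reads in HFD replicate 3. Summed, the pair had a log2 fold change of -0.50 and missed the criteria. circRNA2621 of Acaca, acetyl-CoA carboxylase, had HFD reads of 0, 4 and 3 and ND reads of 10, 17 and 6. Its partner had 5 reads in HFD replicate 1, and summed it reached -1.06 and no longer met them. mmu_circ_0000976 of Itga8, the integrin alpha 8 subunit found on smooth muscle, had HFD reads of 0, 6 and 2 and ND reads of 13, 7 and 18. Its partner had 3 reads in HFD replicate 1, and summed it still met the criteria, at -1.39. mmu_circ_0015757 of Thsd4, an ADAMTS-like matrix protein, had HFD reads of 1, 6 and 1 and ND reads of 13, 6 and 13. circRNA2488 had HFD reads of 5, 0 and 3 and ND reads of 25, 12 and 2, and without ND replicate 1 its log2 fold change was -1.10 and missed the criteria. The normalized reads of Erbin, Thsd4 and circRNA2488 overlapped between the diets.

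**Figure D5:**
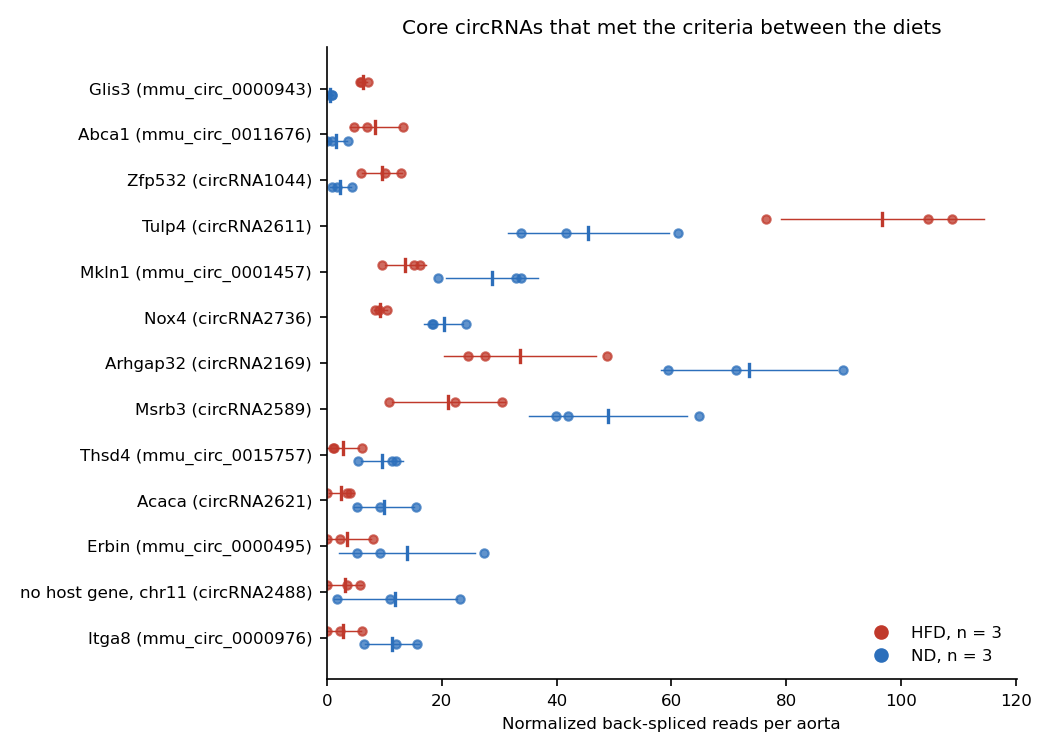
Normalized back-spliced reads in each of 3 HFD (red) and 3 ND (blue) aortas for the 13 core circRNAs that met the criteria, ordered by log2 fold change. Points are aortas, thick marks are means and thin lines are 1 SD cut at 0; of the 13, those of Tulp4, Arhgap32 and Msrb3 have an adjusted p under 0.05.

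Host genes were also read by function. Widely studied circRNA hosts gave 22 core circles from 16 of 33 genes, of which 2 were called higher (Tulp4 and Zfp532) and 0 lower, where all entries tested gave 1.29% and 2.77%. They had a median log2 fold change of 0.09 against -0.19 for all entries tested. Besides Nfix, Hipk3 and Slc8a1 they included mmu_circ_0001311 of Ankib1, with HFD reads of 9, 4 and 13 and ND reads of 16, 22 and 20, and the single-exon circle of Zfp609, with 7, 5 and 6 and 4, 5 and 3. Cdr1, Sry and Smarca5 had no entry in the table.

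Smooth muscle genes gave 7 core circles, of Pde5a, Myocd, Itga8 and Cacna1c, with 0 called higher, 1 lower (Itga8; all entries tested, 1.29% and 2.77%), and a median of -0.59 against -0.19 for all entries tested. circRNA366 of Myocd, the coactivator that drives the smooth muscle contractile programme, had HFD reads of 11, 9 and 6 and ND reads of 17, 11 and 21 (log2 fold change -0.59, edgeR adjusted p = 0.89). mmu_circ_0001511 of Cacna1c had 4, 8 and 4 and 8, 7 and 8. The summed normalized reads of the 7 were 43.0 to 54.9 in the HFD aortas and 66.0 to 87.0 in the ND aortas. Over all 141 entries of the 18 smooth muscle genes with any entry they were 80.0 to 99.6 and 127 to 172, and as a percent of all back-spliced reads 1.37 to 1.75 and 1.95 to 2.45. The ranges did not overlap under either scaling. Cnn1, Des and Tagln, defining genes of the contractile cell, had no entry.

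Actin and focal adhesion genes gave 10 core circles from 5 genes, with 0 called higher and 2 lower, those of Arhgap32 and Msrb3 (all entries tested, 1.29% and 2.77%), and a median of -1.14 against -0.19 for all entries tested. The place of Msrb3, a reductase, in this list is a loose one, and the list was drawn up with both results known. Pdlim5, a scaffold of the actin cytoskeleton, gave 3 of the 10, with HFD reads of 4, 9 and 1 and ND reads of 10, 11 and 11 for circRNA1762 (log2 fold change -0.90, edgeR adjusted p = 0.76). Core reads of the list, normalized, were 59.7 to 99.6 in the HFD aortas and 149 to 192 in the ND aortas, and the Arhgap32 and Msrb3 circles carried most of them. The other 8 circles of the list summed to 21.5 to 32.8 and 37.0 to 47.7, with a median log2 fold change of -1.03. The smooth muscle sums given above were also lower in the HFD aortas, and their part in the result was not tested.

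Markers of other cell types were thin. Leukocyte genes gave 2 core circles, both of Adgre1, the macrophage marker F4/80, with 0 called against 4.06% of all entries tested, and all 18 leukocyte entries summed to 10.5 to 17.3 normalized reads in the HFD aortas and 5.21 to 11.1 in the ND aortas, which overlap. As a percent of all back-spliced reads they were 0.185 to 0.302 and 0.0803 to 0.158, which do not. Cd68, Cd74 and Cd3e had no entry. Endothelial genes gave 1, a single-exon circle of Mecom, with Cdh5, Kdr and Nos3 at no entry and sums of 4.07 to 11.9 and 3.66 to 6.94. Adipocyte genes gave 1, the called Acaca circle, with Adipoq and Plin1 at no entry and sums of 9.15 to 21.5 and 19.1 to 32.9. Neuronal and Schwann cell genes gave 1, of Scn7a. Skeletal and cardiac muscle genes gave 0, with Myh1, Myh2, Myh4, Myh6, Ckm and Actn2 at no entry and sums of 0 to 10.8 and 0 to 4.63. These sums leave out circRNA2488, which is listed as intergenic but runs over Myh1, Myh2 and Myh4 and was lower on the HFD. The part of cell makeup in the diet differences was not tested.

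Cholesterol and foam cell genes gave 4 core circles, 3 of Abca1 and 1 of Dennd1b, with 1 called higher and 0 lower (all entries tested, 1.29% and 2.77%). The median of 1.78, against -0.19 for all entries tested, rests on the 3 overlapping circles of Abca1. Besides mmu_circ_0011676, described above, Abca1 had circRNA1541 with HFD reads of 5, 6 and 3 and ND reads of 1, 3 and 2. The last, mmu_circ_0011675, had 2, 3 and 3 and 1, 1 and 0. Both had positive log2 fold changes, 1.46 and 2.09, that did not pass (edgeR adjusted p = 0.635 and 0.644). These 3 circles share exons 3 to 5, and so they are not independent observations of the gene. mmu_circ_0000083 of Dennd1b, a guanine nucleotide exchange factor for Rab GTPases, covers exons 6 to 9 and had HFD reads of 2, 8 and 2 and ND reads of 9, 4 and 4, a log2 fold change of -0.23 (SE 0.93).

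In 4 further lists no core circle was called, where 4.06% of all entries tested were and their median log2 fold change was -0.19. Chromatin regulators gave 11 circles from 9 genes with a median of 0.06, led by Nsd2 with HFD reads of 7, 7 and 11 and ND reads of 14, 7 and 17, and by Arid1a with 4, 9 and 12 and 5, 9 and 10. Ubiquitin system genes gave 4, of Usp3, Ankib1, Ube3a and Zranb1, with a median of -0.30. mmu_circ_0001798 of the deubiquitinase Usp3 had HFD reads of 13, 12 and 10 and ND reads of 20, 23 and 8. Splicing and RNA-binding protein genes gave 4, among them those of Srpk2, Ptbp3 and Mbnl1, with a median of 0.36. Extracellular matrix genes gave 3, of which 2 were of Ltbp1, the latent TGF-beta binding protein, with log2 fold changes of -1.04 and -1.28 that did not pass (edgeR adjusted p = 0.79 and 0.58), and 1 was of Fndc3b.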

How the data were processed

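Aorta RNA of 3 HFD-fed and 3 ND-fed ApoE-/- mice was used, grouped by the labels. The authors treated total RNA with RNase R, depleted ribosomal RNA, sequenced stranded paired-end libraries, trimmed reads with Cutadapt, searched unmapped reads for back-splices (TopHat-Fusion) and called circRNAs by CIRCexplorer and by CIRI. The genome build is not given in the sources used here. Coordinates are given on GRCm38, since 8767 of 8992 exonic entries have both ends at exon ends of GENCODE vM21. A start 1 base off counted as an exon end, and it applied to 19 core circles.

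The deposited counts are whole numbers of back-spliced reads per entry and aorta, not normalized. The deposited signal is SRPBM, the count over a library depth on a fixed scale, and it served in 1 alternative. The depths this gives were 57.7 to 73.7 M reads. Columns with the authors' own fold changes, p-values and q-values were not used. Host genes given as Ensembl identifiers (42 core entries) were all matched to symbols.

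Counts were tested with edgeR 4.0.16 (glmQLFit, glmQLFTest, TMM, R 4.3.3) over the 2564 entries with reads in at least 2 aortas, with Benjamini-Hochberg adjustment over all of them. The criteria (p under 0.05 before adjustment, log2 fold change over 1 in either direction) are those of the study. Normalized reads are counts scaled to the mean effective library size. The SE is the log2 fold change over the square root of F. The samples are 6 separate mice, and the p-values use a spread shared across entries of like abundance. Exact permutation tests used scipy 1.17.1, and intervals cover counting error only, since reads carry no molecular identifiers. Alternatives were DESeq2 1.42.0, library size alone, the authors' depth, limma 3.58.1 on log2 of SRPBM plus 13.6, other filters, the replicate number as a block, entries 1 base apart summed and each aorta left out. The edgeR script was tested on simulated data with less spread between libraries than these counts had, so that check does not cover spread of this size.

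The members, lists and tests were chosen with earlier results of these data known. Named circRNAs are the 15 with most reads, those with an adjusted p under 0.05, the 6 smallest p in each direction among well-measured circles, hosts with 3 or more core circles, the extremes of exon number and span, list members and the entries next to the rule's limit. Other called circRNAs, circRNA2612, the non-exonic entries and the paired entries were named after their values were seen. mRNA libraries were not analysed here. Sums of list members without the called ones, and the directions of well-measured circles under other scalings and their overlap as a percent of reads, were added after seeing the data. A few members are not reported here.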

Additional observations from a re-analysis of the deposited data

How the results depend on the processing

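The number of core circRNAs was 420 by the rule, 197 with reads in all 6 aortas, 235 with at least 2 reads in at least 5 aortas, 513 with entries 1 base apart summed and 348 with every library drawn down to 4694 reads. The core share of reads was higher on the HFD in the main value and in all 9 alternatives. Against 13 core circRNAs that met the criteria, DESeq2 gave 6 (1.43%, with 0.897% of all entries called), all higher on the HFD, and limma on log2 SRPBM gave 24 (5.71%, with 3.63%). With 1 aorta left out in turn the number was 8 to 18, with 2.63% to 5.73% of all entries called. Against 3 with an adjusted p under 0.05, DESeq2, library size alone and no filter on low counts gave 1 each, and reads in at least 3 aortas and at least 10 reads gave 0 each. With 1 aorta left out it was 0 to 2, and it was 0 without HFD replicate 2 or any 1 ND aorta. Against 5 well-measured circles that met the criteria, DESeq2 and library size alone gave 2 each (all entries, 0.897% and 3.2%), a mean of at least 5 reads gave 11 of 122 (all entries, 4.06%), and leaving out 1 aorta gave 2 to 7 (all entries, 2.63% to 5.73%). The median log2 fold change of the core, -0.19, became 0.0045 with DESeq2 and 0.068 with library size alone, scalings that also moved the median of all entries tested to 0.03 and 0.06. It was -0.29 to -0.08 with 1 aorta left out. Same-numbered aortas did not deviate together (correlations from -0.16 to -0.05 over the 200 entries with most reads), and no sample was paired. With the replicate block, 11 core circRNAs met the criteria, 3 had an adjusted p under 0.05 and the median was -0.22. Among 28 named circRNAs, 324 of 420 alternative values kept direction and call, 69 lost the call, 5 gained it (4 of Slc8a1 and 1 of circRNA2523) and 22 changed direction, and no called circRNA changed direction. Those that did were Esyt2 (0.10 with DESeq2, 0.16 with library size alone, 0.0074 with at least 10 reads), Hipk3 (0.18, 0.23 and 0.087, and 0.050 with entries summed), Tcf20 (0.17, 0.22, 0.074 and 0.034), and Arhgap12 (-0.016 with entries summed). With 1 aorta left out, Esyt2 ranged from -0.32 to 0.020, Hipk3 from -0.24 to 0.16, Tcf20 from -0.20 to 0.041, Mettl9 from -0.19 to 0.36 and Arhgap12 from -0.29 to 0.86. The cause of these changes was not tested. Depth limits most members, since 373 of the 420 have a mean under 10 reads per aorta and a median SE of 1.17 on the log2 scale, against 0.49 for the well-measured ones. The fits that leave out 1 aorta pool the spread over the rest.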
